A study of Mus musculus with 10 samples.

Results

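Isocitrate dehydrogenases and partner enzymes of the citric acid cycle were followed in mouse brain between 1 and 8 weeks of age. The members were chosen by name, as all probe sets that the array annotation gives to Idh1, Idh2, Idh3a, Idh3b, Idh3g, Cs, Mdh1, Mdh2 or Sdha. These 9 genes, of 12393 named by a probe set with a single symbol, had 21 probe sets, of which 20 passed the filter on dim probe sets. All samples were brain RNA of C57BL/6 mice, an inbred strain, with no treatment named, each on 1 Affymetrix MOE430A array. At 1 week of age there were 3 arrays labelled female and 3 labelled male, and at 8 weeks 2 and 2. The labels state age and sex as the factors and number the brains without saying that they came from separate animals, so p-values measure the spread between these samples. Brain tissue mixes cell types, and fewer cells of a type cannot be told apart from less RNA per cell.

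The citric acid cycle oxidises acetyl groups in the mitochondrial matrix and passes electrons to the respiratory chain. Citrate synthase (Cs) joins acetyl-CoA to oxaloacetate, and the NAD-dependent isocitrate dehydrogenase, built from the catalytic alpha subunit Idh3a and the subunits Idh3b and Idh3g, oxidises isocitrate. Sdha is the flavoprotein of succinate dehydrogenase, which is also complex II of the respiratory chain, and Mdh2 turns malate back into oxaloacetate. Idh2 is a mitochondrial NADP-dependent isocitrate dehydrogenase, whereas Idh1 does the same reaction in cytosol and peroxisomes, where its NADPH serves lipid synthesis and redox defence. Mdh1, the cytosolic malate dehydrogenase, works with Mdh2 and the aspartate aminotransferases Got1 and Got2 in the malate-aspartate shuttle, which carries reducing equivalents of glycolysis into mitochondria and is prominent in neurons.

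Intensities below were quantile-normalized between arrays. A change is the log2 difference at 8 weeks minus 1 week ± SE from limma, computed on log2(intensity + 24), which understates changes of dim probe sets, and a gene passed at a Benjamini-Hochberg adjusted p under 0.05 over all 13576 probe sets tested. A gene is represented by its brightest probe set, and intensities of different probe sets were not compared with each other. Deposited arrays differed in brightness, with trimmed means from 138 to 318, and unnormalized values had a median change of 0.47 over the probe sets, against -0.02 after normalization, so directions are relative to the whole distribution. At 1 week 4 arrays had sex markers opposed to their label and 1 had both, so the labels there do not tell the sex of the brain, and those 4 are called the opposed arrays below. Mature neuron, oligodendrocyte and astrocyte markers were measured in all arrays, as a brain label calls for, with 5 of 5, 4 of 6 and 6 of 6 listed genes tested.

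Promoter sequences of Idh1, which fell, Idh2, which did not pass, and Sdha, which rose, are shown because these genes differ most plainly in what follows. Each is the 250 bases before a transcription start in RefSeq (GRCm38.p6), read 5′ to 3′ on the gene's strand, the minus strand for all of them. Capitals mark matches, on either strand, to a CCAAT box, to the GC box bound by Sp1 (GGGCGG), or to the core motif of a regulator of nuclear genes for mitochondrial proteins, NRF1 (GCGCANGCG). Idh1 has a pair of annotated starts, at chr1:65179143-65179392 and chr1:65186480-65186729, while Idh2 lies at chr7:80115351-80115600 and Sdha at chr13:74350241-74350490.
Idh1, first listed start: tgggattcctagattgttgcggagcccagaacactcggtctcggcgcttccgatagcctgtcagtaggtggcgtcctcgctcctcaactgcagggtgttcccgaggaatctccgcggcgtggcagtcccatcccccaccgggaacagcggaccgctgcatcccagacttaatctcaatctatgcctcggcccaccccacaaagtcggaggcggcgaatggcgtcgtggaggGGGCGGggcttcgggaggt
Idh1, second listed start: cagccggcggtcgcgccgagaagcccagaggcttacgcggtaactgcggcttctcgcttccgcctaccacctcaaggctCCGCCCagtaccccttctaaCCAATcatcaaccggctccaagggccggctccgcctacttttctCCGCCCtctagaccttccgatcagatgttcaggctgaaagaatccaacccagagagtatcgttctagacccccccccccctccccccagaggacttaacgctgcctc
Idh2: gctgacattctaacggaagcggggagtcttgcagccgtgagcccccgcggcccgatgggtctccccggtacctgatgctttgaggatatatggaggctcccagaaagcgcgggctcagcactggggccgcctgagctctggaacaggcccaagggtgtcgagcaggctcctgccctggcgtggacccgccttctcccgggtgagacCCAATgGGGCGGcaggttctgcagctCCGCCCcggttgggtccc
Sdha: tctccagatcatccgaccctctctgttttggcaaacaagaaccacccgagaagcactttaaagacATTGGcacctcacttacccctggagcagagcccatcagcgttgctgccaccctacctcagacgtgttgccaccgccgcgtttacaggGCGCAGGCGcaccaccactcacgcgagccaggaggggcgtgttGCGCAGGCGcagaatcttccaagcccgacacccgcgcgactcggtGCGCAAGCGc

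The NRF1 motif was found 3 times before Sdha, 98, 55 and 10 bases from the start, and in no other member promoter, against 5.16% of 32851 promoters of the same length with at least 1 match. GC boxes stood in the promoters of 5 of 8 member genes with a RefSeq promoter (32.7% of all promoters), both Idh1 starts and Idh2 among them, and CCAAT boxes in 6 of 8 (33.8% of all promoters). A GABPA-type ETS motif (CCGGAAG) was found in Idh3g only among members (6.91% of all promoters). No member promoter held an ERR half-site (AAGGTCA, 4.08% of all promoters), an SREBP motif (TCACNCCAC, 1.05%) or a CACGTG E-box (6.02%). The motifs do not overlap with each other in these windows, and a match is a description of the letters, not a site shown to be bound.

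Idh1 was the only member whose brightest probe set fell between 1 and 8 weeks. Arrays labelled female at 1 week read 1532, 1422 and 1216, and those labelled male 1392, 1386 and 1472. At 8 weeks the readings were 206 and 288 in arrays labelled female and 160 and 319 in those labelled male. The 8-week arrays therefore all lay far below every 1-week array, with no overlap. The mean went from 1403 ± 107 (SD, n = 6) to 243 ± 73.2 (SD, n = 4), a 5.77-fold difference of means, and the change was -2.46 ± 0.16 (limma adjusted p = 2.63e-06, 95% interval -2.82 to -2.09). Only 11 of 8148 genes had a larger fall, which makes Idh1 the 12th from the bottom, and 26 genes (0.319%) fell at least 4-fold. Its other probe set went from 544 ± 42.0 to 118 ± 16.5, a change of -2.004 ± 0.092 (adjusted p = 3.57e-07), again with no overlap. On the deposited scale the fall was still -1.94 ± 0.19.

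Within 8 weeks the Idh1 probe sets were not in the same order. The brighter was highest in replicate 2 of either label, at 288 and 319, while the dimmer read 104 in both of those arrays and 127 and 137 in replicate 1 labelled female and labelled male. The spread at 8 weeks was small beside the gap between ages for both probe sets.

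Mdh1, the other cytosolic member, went the opposite way. The 1-week arrays read 2842, 2572 and 2814 in those labelled female and 2592, 2877 and 3016 in those labelled male. At 8 weeks the values were 4233 and 4339 in arrays labelled female and 4563 and 4736 in those labelled male, all above every 1-week array. The mean rose from 2786 ± 172 (SD, n = 6) to 4468 ± 226 (SD, n = 4), a change of 0.68 ± 0.07 (limma adjusted p = 5.22e-05). Both dimmer probe sets that were tested rose as well, by 0.41 ± 0.11 and 0.40 ± 0.09 on the log2 scale. A further Mdh1 probe set lay below the filter, between 19.6 and 82.9, and was not tested.

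**Figure D1:**
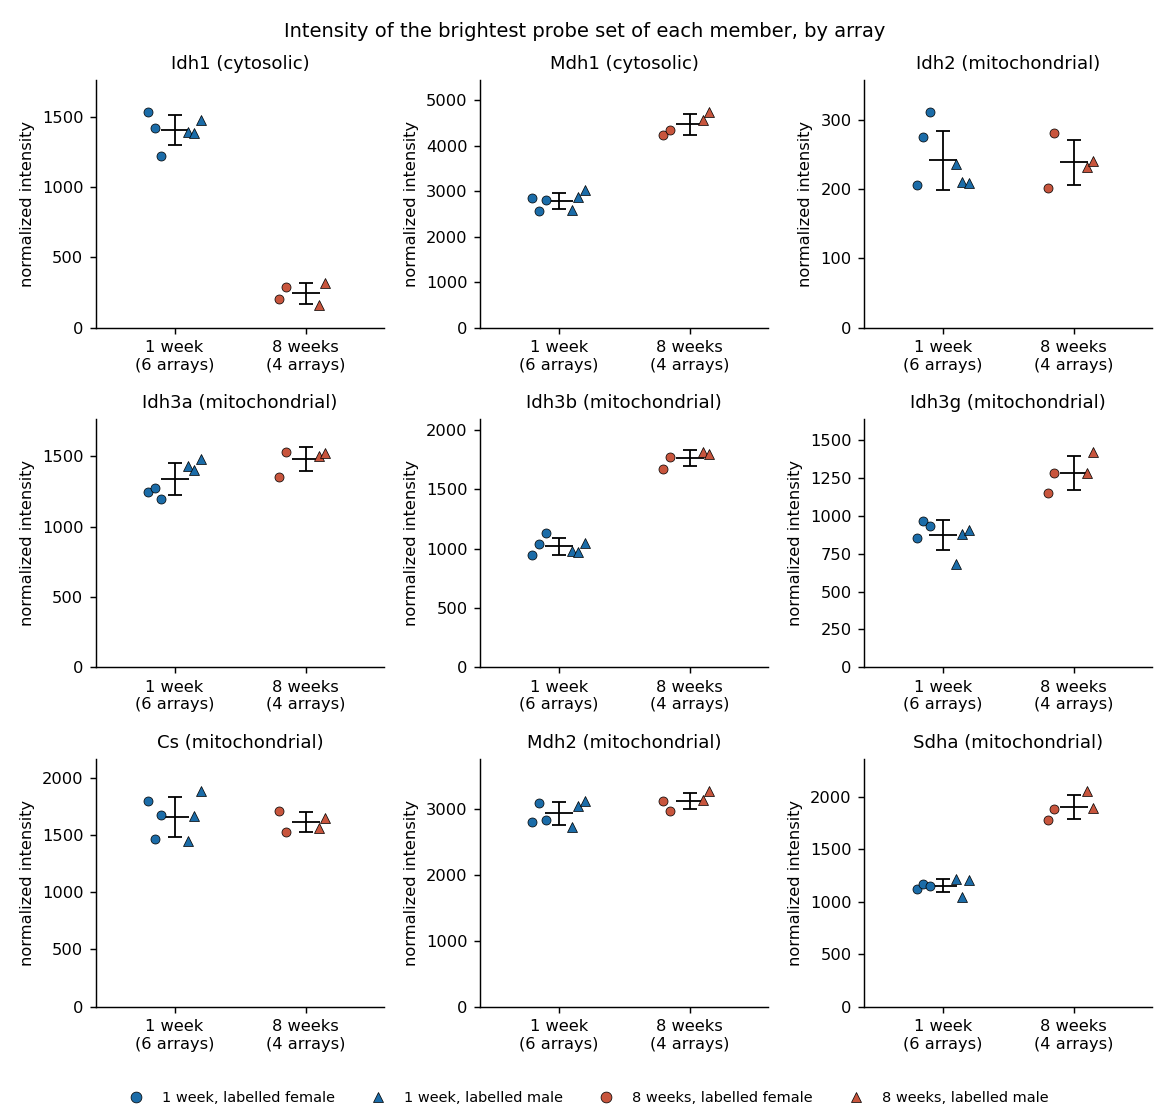
Normalized intensity (linear axis from 0) of the brightest probe set of each member in each array, at 1 week (blue, 6 arrays) and 8 weeks (red, 4 arrays), with circles for arrays labelled female, triangles for those labelled male, and bars for mean ± SD. Idh1 is the member that drops, from 1403 to 243, while the ages do not overlap either for Mdh1, Idh3b, Idh3g and Sdha, which are higher at 8 weeks.

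Idh2, the mitochondrial NADP-dependent relative of Idh1, showed no such fall. Its single probe set read 206, 275 and 311 in arrays labelled female at 1 week and 236, 210 and 209 in those labelled male. The 8-week arrays read 201 and 280, then 232 and 240. The reading of 201 lay just below the 1-week range and the others inside it, so the ages overlapped. The change was -0.01 ± 0.12 (limma adjusted p = 0.964), with a 95% interval from -0.28 to 0.26, so a change as large as that of Idh1 lies outside it. On the deposited scale, with its overall shift of 0.47, Idh2 passed as higher (0.49 ± 0.15, adjusted p = 0.00926).

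Among the subunits of the NAD-dependent enzyme, Idh3b and Idh3g were higher at 8 weeks. Idh3b read 944, 1039 and 1132 in arrays labelled female at 1 week and 979, 973 and 1044 in those labelled male. Its 8-week arrays read 1674 and 1771, then 1819 and 1799, with no overlap, and the change was 0.78 ± 0.08 (limma adjusted p = 2.39e-05). The other Idh3b probe set rose by 0.97 ± 0.09 on the log2 scale. Idh3g, which lies on the X chromosome, read 855, 967 and 933 in arrays labelled female and 684, 881 and 909 in those labelled male at 1 week. At 8 weeks it read 1151 and 1284, then 1283 and 1426, again above all 1-week arrays, a change of 0.55 ± 0.10 (adjusted p = 0.00111), and its second probe set rose by 0.48 ± 0.06.

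For the catalytic subunit Idh3a the answer depended on the probe set. The brightest read 1246, 1277 and 1201 in arrays labelled female and 1431, 1402 and 1485 in those labelled male at 1 week, and 1352, 1535, 1502 and 1527 at 8 weeks. These ranges overlapped, and the change of 0.14 ± 0.07 did not pass (limma adjusted p = 0.123). Both dimmer probe sets passed without overlap, one from 386 ± 46.7 to 564 ± 47.6 (0.53 ± 0.10, adjusted p = 0.00152) and the other from 196 ± 17.0 to 278 ± 13.6 (0.46 ± 0.08, adjusted p = 7.85e-04). Taking the median over the 3 probe sets, Idh3a passed as higher (0.53 ± 0.10, adjusted p = 0.00124), as it did without normalization (0.68 ± 0.14).

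Sdha was the other mitochondrial member that rose. It read 1126, 1166 and 1152 in arrays labelled female at 1 week and 1220, 1051 and 1211 in those labelled male. Its 8-week readings were 1779 and 1885 in arrays labelled female and 2055 and 1895 in those labelled male, so the lowest stood well above the highest at 1 week. The change was 0.71 ± 0.07 (limma adjusted p = 4.01e-05), and the second probe set went further, from 657 ± 63.3 to 1455 ± 88.8 (1.12 ± 0.08, adjusted p = 4.59e-06).

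Cs and Mdh2 did not pass with their brightest probe sets. Cs read 1799, 1466 and 1673, then 1449, 1663 and 1881 at 1 week, against 1710, 1523, 1561 and 1649 at 8 weeks, and the 8-week values fell inside the 1-week range. Its change was -0.03 ± 0.10 (limma adjusted p = 0.802), a second probe set had -0.08 ± 0.09, and the dimmest was lower at 8 weeks without overlap (945 ± 183 against 661 ± 42.0, change -0.48 ± 0.10, adjusted p = 0.00357). Mdh2 read 2799, 3090 and 2829, then 2722, 3051 and 3125 at 1 week, against 3120, 2975, 3139 and 3270 at 8 weeks, an overlap of the ages with a change of 0.09 ± 0.07 (adjusted p = 0.343) and 0.04 ± 0.08 in its other probe set. On the deposited scale both passed as higher, Cs by 0.51 ± 0.16 and Mdh2 by 0.54 ± 0.15, close to the 0.47 of all probe sets.

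By brightest probe set, 4 of the 9 members rose, where 21.9% of 8148 genes did, and 1 fell, where 24.0% did. The ages did not overlap in 5 of 9 members, against 35.9% of genes. The median change over the members was 0.14, beside -0.02 over all genes tested. By compartment, the cytosolic pair split into the fall of Idh1 and the rise of Mdh1, while 3 of 7 mitochondrial members rose, 0 fell and 4 did not pass. Without the 4 opposed arrays of 1 week, and with age alone in the model, which leaves 2 arrays at that age, the count was again 4 rising and 1 falling.

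**Figure D2:**
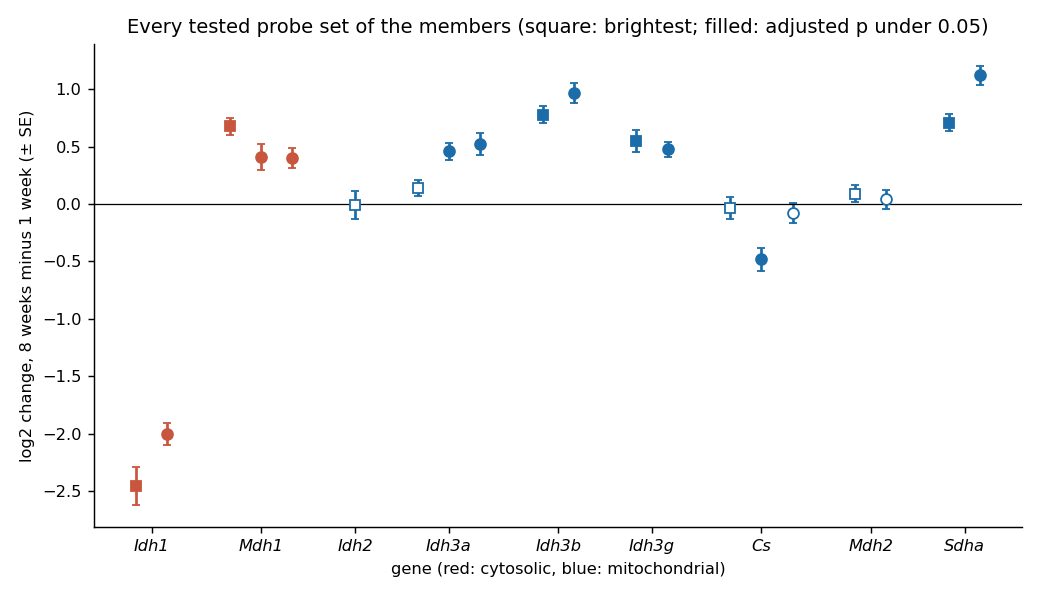
Log2 change at 8 weeks minus 1 week ± SE for each of the 20 tested probe sets of the members, with squares for the brightest of a gene, filled marks for a limma adjusted p under 0.05, red for cytosolic and blue for mitochondrial enzymes. Both Idh1 probe sets lie at -2.004 or below, and probe sets of 1 gene disagree on the call for Idh3a and Cs.

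To compare compartments directly, the log2 value of a cytosolic enzyme minus that of its mitochondrial partner was taken within each array, which is little affected by the scaling. The 6 pairs that could be formed were compared between ages with a two-sided exact permutation test over 210 regroupings, whose smallest possible p is 0.00476. The Idh1 over Idh2 ratio was 2.76, 2.28 and 1.89 in arrays labelled female and 2.45, 2.59 and 2.68 in those labelled male at 1 week. At 8 weeks it was 0.03 and 0.04, then -0.48 and 0.38, far below every 1-week array. Its mean dropped by 2.45 on the log2 scale (exact permutation p = 0.00476, adjusted p = 0.00476 over 6 pairs), lower in 4 of 4 arrays at 8 weeks than in all 6 at 1 week.

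Against the NAD-dependent subunits the Idh1 ratio moved as far or further. The differences were -2.60 over Idh3a, -3.24 over Idh3b and -3.01 over Idh3g (each exact permutation adjusted p = 0.00476). Mdh1 over Mdh2 went the other way, from -0.08 ± 0.10 (SD, n = 6) to 0.51 ± 0.05 (SD, n = 4), a difference of 0.59 (exact permutation adjusted p = 0.00476). Got1 over Got2, the aminotransferase pair of the same shuttle, rose from -1.04 ± 0.11 to -0.07 ± 0.06, a difference of 0.97 (exact permutation adjusted p = 0.00476). All 6 pairs were without overlap between ages, but those with Idh1 share its fall and repeat that result. How often other pairs of genes separate the ages was not computed. Over all combinations of tested probe sets the Idh1 pairs kept the smallest possible p, with differences from -3.43 to -1.997. Mdh1 over Mdh2 ran from 0.31 to 0.64, and 5 of its 6 combinations had an exact permutation p under 0.05, the highest being 0.1.

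**Figure D3:**
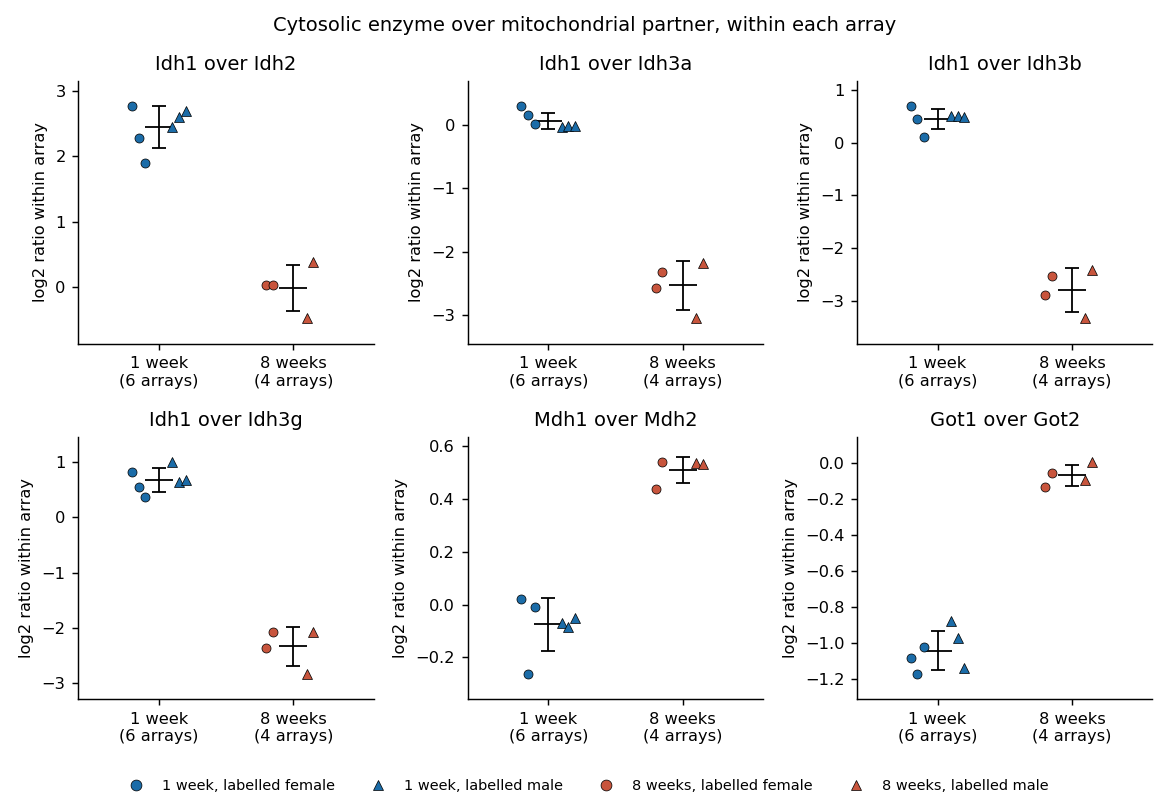
Log2 ratio within each array of a cytosolic enzyme over its mitochondrial partner (each panel has its own axis), at 1 week (blue, 6 arrays) and 8 weeks (red, 4 arrays), with circles for arrays labelled female, triangles for those labelled male and bars for mean ± SD. The 4 Idh1 ratios change by -2.45 to -3.24 with age, whereas Mdh1 over Mdh2 and Got1 over Got2 rise by 0.59 and 0.97.

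Subunits of the same enzyme complex also changed unequally, a comparison chosen after the values were seen. In succinate dehydrogenase Sdha rose, while the iron-sulphur subunit Sdhb was 1812 ± 61.5 at 1 week and 1842 ± 172 at 8 weeks (change 0.02 ± 0.08) and the membrane anchor Sdhd had -0.10 ± 0.14, neither passing. Sdhc, the other anchor, passed at 0.32 ± 0.10 (limma adjusted p = 0.019), but not without replicate 1 labelled female (adjusted p = 0.069) or replicate 2 labelled male at 8 weeks (adjusted p = 0.078). With all arrays, the other Sdhc probe set passed too (0.32, limma adjusted p = 0.00624). Within arrays Sdha rose by 0.69 over Sdhb, 0.39 over Sdhc and 0.81 over Sdhd (each exact permutation p = 0.00476, adjusted p = 0.00595 over 5 ratios), in 4 of 4 arrays at 8 weeks beyond all 6 at 1 week. For Sdha over Sdhd, 3 of 4 combinations of probe sets were without overlap, and the highest exact permutation p was 0.0381. Idh3b over Idh3a rose by 0.64 (exact permutation adjusted p = 0.00595) and kept an exact permutation p under 0.05 in all 6 combinations of probe sets. Idh3g over Idh3a rose by 0.41 with the brightest probe sets (exact permutation adjusted p = 0.0143), but only 2 of 6 combinations had an exact permutation p under 0.05, and their differences ran from -0.05 to 0.41.

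The remaining enzymes of the cycle were mixed, with 4 of 10 tested rising (21.9% of all genes), 0 falling (24.0%) and 6 not passing, at a median of 0.06. The succinyl-CoA ligase subunits Sucla2 (860 ± 53.8 to 1190 ± 80.9, change 0.46 ± 0.07, limma adjusted p = 6.28e-04) and Suclg1 (0.45 ± 0.07) rose, as did Ogdh, the first component of oxoglutarate dehydrogenase (0.35 ± 0.09). Suclg2, the other beta subunit of the ligase, did not pass (-0.10 ± 0.09), nor did Dlst (-0.12 ± 0.09) and the fumarase gene Fh1 (-0.13 ± 0.10). With age alone in the model, Ogdh and Sdhc lost their calls without the 4 opposed arrays (0.28 ± 0.12 and 0.28 ± 0.11).

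Of genes that govern the entry of pyruvate, 2 of 7 tested rose (21.9% of all genes) and 0 fell (24.0%), with a median of 0.11. Pdk2, a kinase that inhibits pyruvate dehydrogenase, went from 187 ± 8.56 to 423 ± 102 (change 1.05 ± 0.12, limma adjusted p = 5.80e-05), and Pcx, pyruvate carboxylase, which refills oxaloacetate and in brain is mainly astrocytic, rose by 0.37 ± 0.07. The pyruvate dehydrogenase subunits Pdha1 (-0.12 ± 0.09) and Pdhb (-0.02 ± 0.07) did not pass. Dlat, of the same list, did not pass with its brightest probe set (0.15 ± 0.07). It passed as higher with the median over its probe sets (0.24 ± 0.08, limma adjusted p = 0.0326).

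Shuttle enzymes and carriers rose in 4 of 5 tested (21.9% of all genes), 0 fell (24.0%), and the median was 0.35. The list held 8 genes and was not limited to the malate-aspartate shuttle. Its carriers Slc25a1 and Slc25a12 had no probe set with a single symbol and Slc25a13 lay below the filter, so these were not tested. Got1, cytosolic aspartate aminotransferase, went from 1094 ± 97.5 to 2529 ± 111 (change 1.20 ± 0.07, limma adjusted p = 1.66e-06), and its mitochondrial partner Got2 from 2275 ± 106 to 2656 ± 70.4 (0.22 ± 0.07, adjusted p = 0.0203). The other Got2 probe set did not pass (0.14, limma adjusted p = 0.234). Slc25a11, the malate and oxoglutarate carrier, rose by 0.35 ± 0.08, and the mitochondrial glutamate carrier Slc25a22 by 0.40 ± 0.12. Got2 lost its call without replicate 1 of either label at 8 weeks (adjusted p = 0.0607 and 0.0604) and under scaling to the median (adjusted p = 0.0865) or to spike-in controls (adjusted p = 0.119). Slc25a22 lost its call without replicate 1 labelled female (adjusted p = 0.0876) or replicate 2 labelled male at 8 weeks (adjusted p = 0.094), and with a replicate block (adjusted p = 0.0717). Without the 4 opposed arrays and with age alone in the model, neither passed (adjusted p = 0.106 for Got2 and 0.0622 for Slc25a22), at changes of 0.23 ± 0.10 and 0.43 ± 0.15.

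Cytosolic enzymes that, with Idh1, use citrate or make NADPH were lower at 8 weeks in 3 of 4 tested (24.0% of all genes) and 0 rose (21.9%), at a median of -0.37. On the deposited scale, however, the changes of all 4 turned above 0 without passing. Me1, the cytosolic malic enzyme, went from 627 ± 89.6 to 443 ± 16.4 (change -0.47 ± 0.09, limma adjusted p = 0.0021), but read 0.07 on the deposited scale. Aco1, cytosolic aconitase and iron regulatory protein, fell by 0.39 ± 0.08 on the log2 scale and Acly, which splits citrate for lipid synthesis, by 0.24 ± 0.07, but these read 0.14 and 0.29 on the deposited scale. Pgd, of the pentose phosphate pathway, did not pass with its brightest probe set (-0.35 ± 0.14, limma adjusted p = 0.0586), but its 3 dimmer probe sets all passed as lower, and so did the median over its probe sets (-0.58 ± 0.07, adjusted p = 6.28e-05). Scaled to spike-in controls, Me1, Aco1 and Acly kept a negative sign without passing (adjusted p = 0.22, 0.379 and 0.794). Of the 3, Acly also lost its call without replicate 1 labelled female at 8 weeks (adjusted p = 0.0511) and with the median over its probe sets (-0.20 ± 0.09, adjusted p = 0.0773). Without the 4 opposed arrays and with age alone in the model, Aco1 and Acly no longer passed (adjusted p = 0.0629 and 0.122), at changes of -0.40 ± 0.14 and -0.22 ± 0.10.

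**Figure D4:**
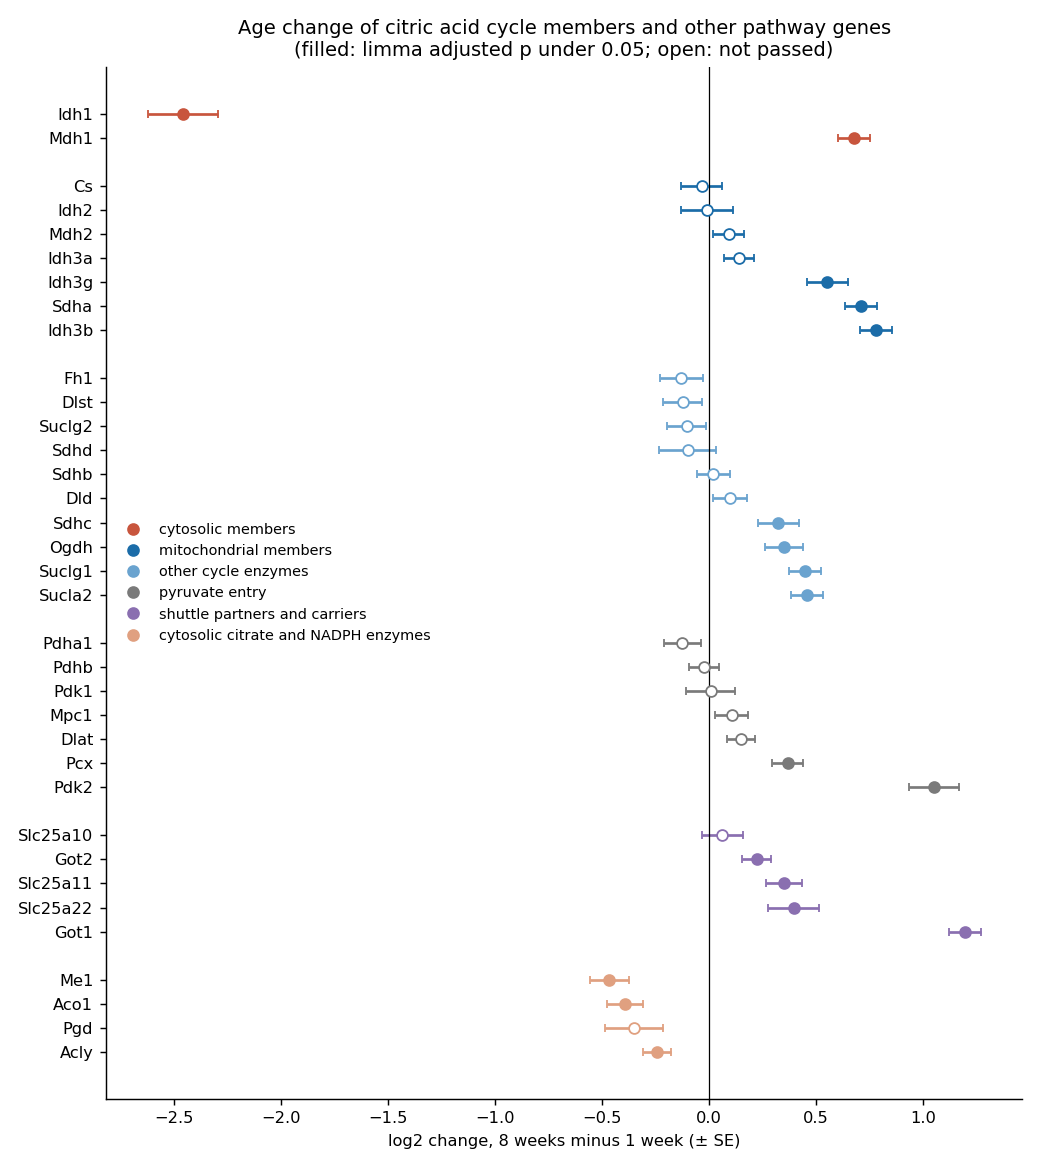
Log2 change at 8 weeks minus 1 week ± SE for the members and the other pathway genes, grouped by role, with filled marks for a limma adjusted p under 0.05. Idh1 stands alone at -2.46, mitochondrial enzymes run from -0.13 to 0.78 apart from genes of pyruvate entry, and Got1 and Pdk2 lie above 1.

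Over these 36 other genes, 10 of 26 tested rose and 3 fell, with a median of 0.08, against the 21.9% and 24.0% of all genes given above. With age alone in the model the counts were again 10 and 3 of 26, and without the 4 opposed arrays as well, 7 of 27 tested rose and 1 fell. General mitochondrial genes, namely porins, an import receptor, a chaperonin, a transcription factor and a nucleotide carrier, had 7 of 7 listed members tested, with 1 rising and 2 falling. Their summed intensity ran from 13482 to 14323 at 1 week and from 13535 to 14104 at 8 weeks, an overlap of the ages.

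Cell type markers moved with age at the same time, and their part in the changes above was not tested. Immature neuron markers, which fell in 5 of 5 tested, summed to between 12558 and 15997 at 1 week and between 4322 and 5233 at 8 weeks. The summed level of mature neuron markers (3 of 5 rose) ran from 5858 to 6951 and then from 9690 to 10004, that of oligodendrocyte markers (3 of 4 rose) from 2113 to 9686 and then from 12364 to 15691, and that of astrocyte markers (2 of 6 rose) from 6067 to 8457 and then from 12470 to 13623. The astrocyte markers that rose were Aldoc (1968 to 5681) and Glul (1008 to 3002), and the other 4 did not pass with their brightest probe sets. Meningeal fibroblast markers (3 of 5 fell) ran from 1731 to 9098 and then from 697 to 958. Microglia markers (4 of 4 rose) went from between 1711 and 2026 to between 2283 and 3125, and endothelial markers (2 of 4 fell) from between 1065 and 1312 to between 824 and 863. Of pituitary markers, 2 of 3 rose, the hormone genes Prl by 4.15 ± 0.60 and Gh by 4.04 ± 1.01 on the log2 scale. Their sum ran from 160 to 2248 and then from 951 to 13220, highest in replicate 1 labelled female at 8 weeks. The other 8-week arrays read 1210, 4533 and 951, and the part of pituitary tissue in the changes was not tested. None of 2 choroid plexus markers passed, and the 1 erythroid marker tested, Alas2, fell by 0.80. The dimmest means were 11.5 for Prl at 1 week and 26.6 for Sox11 at 8 weeks, under the lowest mean of a probe set that passed the filter (74.5). Also under it were Camk2a (45.1), Cbln3 (49.8) and Gabra6 (65.3) at 1 week, and Col1a1 (42.1) and Col3a1 (63.7) at 8 weeks. All those levels cannot be told from background. Cerebellar granule markers (2 of 3 rose) summed to between 298 and 1498 at 1 week. Their sum varied among the 8-week arrays, at 2756 and 2598 in those labelled female and 801 and 4334 in those labelled male. The value of 801 lay inside the 1-week range. The brighter Idh1 probe set was also lowest and highest in the arrays labelled male, at 160 and 319. The dimmer read 137 and 104 there, and a link to these markers was not tested.

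By labelled sex the age changes of the members were alike in sign for every gene that passed over both labels. Idh1 changed by -2.39 ± 0.23 in arrays labelled female and -2.52 ± 0.23 in those labelled male. Sdha had 0.66 ± 0.11 and 0.76 ± 0.11, Idh3b 0.72 ± 0.11 and 0.84 ± 0.11, and Mdh1 0.64 ± 0.10 and 0.71 ± 0.10. Among brightest probe sets 4 members passed in arrays labelled female and 5 in those labelled male (all genes, 14.0% higher and 16.0% lower in the former, 15.5% and 16.5% in the latter), Idh3g missing in the former (0.40 ± 0.14, limma adjusted p = 0.0515). The difference between the labels was not past the threshold for any of the 20 member probe sets (limma, 0 called, 1 at an unadjusted p under 0.05, lowest adjusted p = 0.857), as for all 13576 probe sets (0%, with 759 unadjusted). Between labels at 8 weeks, where sex markers matched, the members' brightest probe sets differed by -0.09 to 0.15. In that contrast limma called 0% of all probe sets (345 unadjusted), and even Xist, the X inactivation transcript, did not pass at 1676 and 1405 in arrays labelled female against 131 and 134 in those labelled male. At 1 week Xist ran from 163 to 866 in arrays labelled female and from 293 to 1664 in those labelled male. The fit shares the spread of a probe set over all 4 groups, so those arrays widen it for Xist. For the members' brightest probe sets the SE of the 8-week difference ran from 0.11 (Idh3a) to 0.26 (Idh1). Differences of that size and well above it could be missed, as Xist was, and an absence of calls does not show equal levels.

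The genes whose log2 values followed Idh1 most closely over the 10 arrays were Prune1 (Pearson r = 0.993), Stmn2 (r = 0.991) and Kdm2b (r = 0.989). All 3 fell with age, Kdm2b from 506 to 147 on average, and the likeness includes that gap between ages, which all 10 arrays share. For Idh2 the closest were Msh3 (r = 0.888), Fam43a (r = 0.877) and Ttpa (r = 0.85), none of which passed for age.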

How the data were processed

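The authors deposited linear intensities, a column for each of 10 arrays; the software and settings behind them are not given in the sources used here. Groups came from the labels. Of 22690 probe sets, 64 controls were left out, arrays were quantile-normalized, a pseudocount of 24 (the 20th percentile) was added, and probe sets under the 40th percentile of mean log2 were dropped, leaving 13576 and 8148 genes. A single symbol was given for 20380 probe sets, several for 691 and none for 1555. Fits used limma 3.58.1 under R 4.3.3 (lmFit, eBayes; a coefficient for each of the 4 groups), tested on simulated data. Ratios were compared with exact permutation tests. The number of arrays limits the precision. The members, gene lists and tests were chosen with earlier results of these data known. Named genes were all members, up to 4 passing genes of each pathway list in its main direction and 2 in the other, and the 3 genes most like Idh1 and Idh2. Non-passing pathway genes and single marker genes were named after their values were seen. Alternatives covered scaling, pseudocount, filter, model, probe set choice and each array left out; subunit ratios and ratios over all probe set combinations were added after seeing the data.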

Additional observations from a re-analysis of the deposited data

Results flagged for a closer look

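A single array stood apart from the others of its age in 3 of 42 sets of readings, that is 21 probe sets at each age. Chance marks about 1 in 20 such sets. The dimmer Idh1 probe set read 628 in replicate 2 labelled female at 1 week, with the next at 540 and the lowest at 516. The Mdh1 probe set below the filter read 82.9 in replicate 2 labelled male at 1 week, with the next at 30.2, and 2 of its 8-week arrays, both labelled male, also read high, at 70.4 and 79.5. A dimmer Idh3a probe set read 298 in replicate 1 labelled male at 8 weeks, with the others between 269 and 273.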

How the results depend on the processing

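Idh1, Mdh1, Idh3b, Idh3g and Sdha kept their direction and call under all 24 alternatives, of which 1, with a lone array left at 1 week, is no test of stability, with Idh1 between -2.68 and -1.94, and 5 members passed with each array left out in turn. On deposited values, where the median change was 0.47, 9 members passed (8 higher) and 21 other pathway genes (0 lower), with 8673 probe sets higher and 629 lower. There the signs turned for Idh2 (0.49), Cs (0.51), Dlst (0.41), Sdhd (0.45), Fh1 (0.42), Pdha1 (0.40), Pdhb (0.52), Aco1 (0.14), Acly (0.29) and Me1 (0.071), and also for Suclg2 and Pgd, which passed in neither. Scaled to spike-in controls the probe sets split 3058 higher to 1236 lower, with a median of 0.14, and the signs of Idh2, Cs, Dlst, Sdhd, Fh1, Pdha1 and Pdhb turned without passing. Age within the label male gave 7279 probe sets on deposited values against 4355, and sex gave 7 at 1 week, 1 at 8 weeks, 2 over both and 1 for the interaction, against 0 each. Without the 4 opposed arrays 4042 probe sets and 8 other pathway genes passed, and without the mixed array too 3722 and 8; fewer arrays were fitted. Without the 4 opposed arrays the exact permutation test of the ratios cannot go below p = 0.0667 and reached it, at -2.18, -2.53, -3.10 and -3.02 for Idh1 over Idh2, Idh3a, Idh3b and Idh3g, 0.54 for Mdh1 over Mdh2 and 0.88 for Got1 over Got2. Leaving out each array gave 5215 to 6062 probe sets and 9 to 14 other pathway genes. Same-numbered replicates had correlations of deviations from -0.03 to 0.19 (median 0.10), and other pairs from -0.18 to 0.18 (median -0.06). The median was higher for the same number, but deviations from the mean of 2 arrays mirror each other. Values of same-numbered and other pairs therefore depend on each other, and do not show that arrays of the same number were more alike. The labels do not say that the numbers pair the samples, and the main fit left them out. With a replicate block 2847 probe sets were higher and 3054 lower, and 5 members passed.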
